A study of Homo sapiens with 44 samples.

Results

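The natriuretic peptide receptors NPR1, NPR2 and NPR3, the peptide gene NPPB, the soluble guanylate cyclase subunits GUCY1A1, GUCY1A2 and GUCY1B1, the phosphodiesterase PDE5A and the kinases PRKG1 and PRKG2 form a set of 10 genes, of 58721 in the tables. They were measured by RNA-seq read counts in A549 cells, an established human lung adenocarcinoma line, and in tumours grown from them. The genes are a list set by name and chosen by values of cultured cells: NPR3 was known to be far lower in het1 than in WT cells, and GUCY1A1 far higher in homo than in WT cells. Their levels in culture are therefore given as a description without a test, and tests are given for tumours, which are other libraries of the same lines.

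Cyclic GMP is a second messenger made from GTP by 2 kinds of enzyme. The receptor cyclases NPR1 and NPR2 sit in the cell membrane and are switched on by natriuretic peptides, of which NPPB encodes B-type natriuretic peptide, while NPR3 binds the same peptides and clears them without a cyclase domain. The soluble cyclase is switched on by nitric oxide and works as a pair of an alpha subunit (GUCY1A1 or GUCY1A2) and the beta subunit GUCY1B1. PDE5A breaks cyclic GMP down, and the kinases PRKG1 and PRKG2 are activated by it. The pathway is best known for relaxing vascular smooth muscle, and PRKG2 for its roles in gut epithelium and growing bone.

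All lines are A549. WT is the parental line, and het1, het2 and homo are isogenic lines whose p300, an acetyltransferase encoded by EP300, is truncated at its TAZ2 domain, which binds transcription factors. The names het1, het2 and homo are the genotypes as labelled, and each is 1 line, so other differences between a line and WT cannot be told apart from the truncation. Each line gave 3 libraries in culture and 4 from untreated tumours collected at day 30. Tumours of WT and het1 were also treated for 4 weeks with DMSO, the vehicle, or SAHA, with 4 libraries per group. SAHA (vorinostat) inhibits histone deacetylases. The labels name neither the host animal nor the dose, and leave unstated if replicates are different cultures or animals. The p-values thus rest on the spread between libraries, which may be technical.

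The 12 groups hold 44 libraries of 61168373 to 99593214 counts. Levels are in CPM, the count relative to the library total after TMM scaling within each of the 3 tables (culture, day 30 tumours, treated tumours), so levels set side by side across tables are untested. EP300 stood at 112 to 118 CPM in WT cells and at 150 to 192 CPM in the other 3 lines, and counts per gene cannot show a truncation. Of the A549 epithelial markers, KRT8 was high in WT cells (3085 CPM), while the lung markers NKX2-1, SFTPB and SFTPC were at 1, 4 and 3 counts over the 3 WT libraries. The summed level of the 8 epithelial markers was 5316 to 5621 CPM in WT cells, 1870 to 1979 in het1, 1681 to 1756 in het2 and 726 to 738 in homo. Of the 10 genes, 9 passed the filter on low counts in culture and in day 30 tumours and 8 in treated tumours. NPPB passed nowhere, and GUCY1A1 did not pass in treated tumours, which hold no homo or het2 group.

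**Figure D1:**
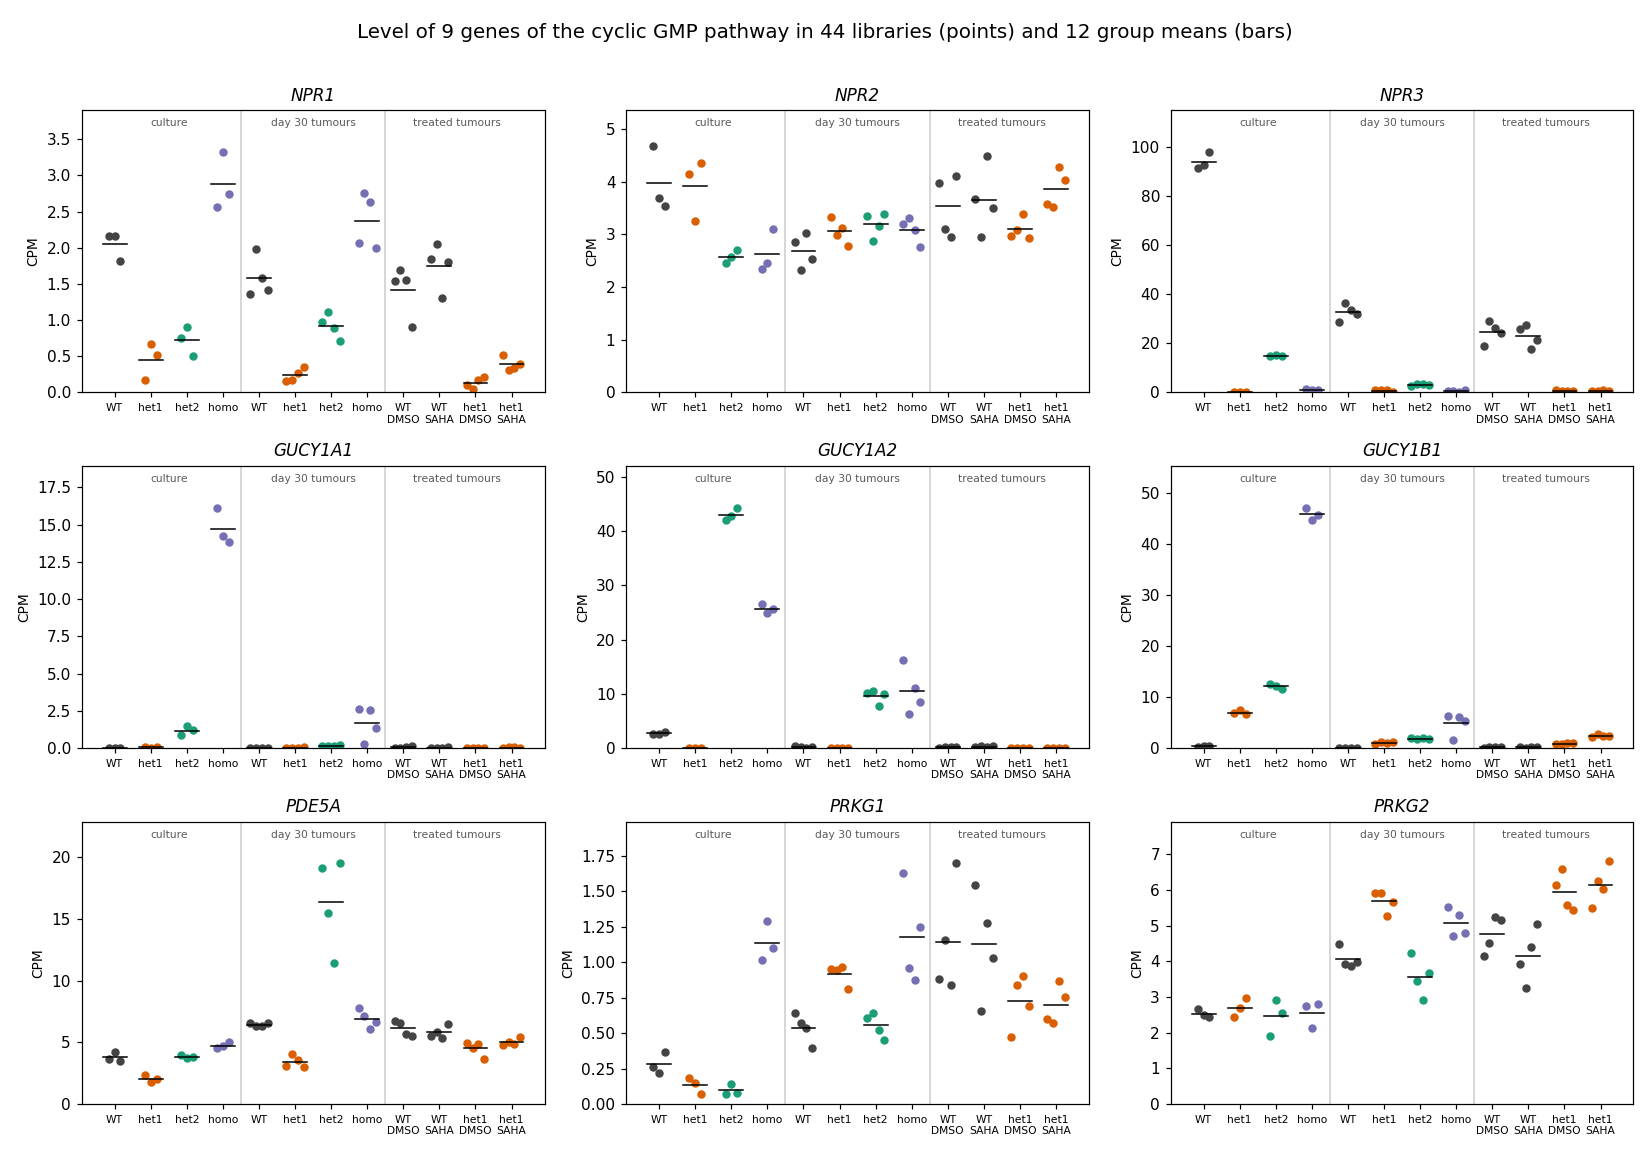
Each panel plots 1 gene: the CPM of each library (points) and the group mean (bar) in the 12 groups, on its own axis from 0. NPR3 is highest in WT cells (91.5 to 98.0 CPM), GUCY1A1 and GUCY1B1 in homo cells, GUCY1A2 in het2 cells and PDE5A in het2 tumours.

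NPR3, the clearance receptor (chromosome 5, 32689070 to 32791724, GENCODE 29 on GRCh38), was the member with the widest span of levels. WT cells had 91.5, 92.7 and 98.0 CPM, and het1 cells 0.0499, 0.136 and 0 CPM. Het2 cells had 14.7, 15.2 and 14.7 CPM, and homo cells 1.19, 1.15 and 0.916 CPM. The 4 lines did not overlap, and the order was WT, het2, homo, het1. The 3 het1 libraries held 14 NPR3 counts in all. Against WT the log2 fold change (log2FC) was -10.53 (SE 0.13) in het1, -2.67 (SE 0.06) in het2 and -6.42 (SE 0.09) in homo.

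In day 30 tumours NPR3 was lower in all 3 edited lines. WT tumours had 28.8, 36.4, 33.6 and 32.1 CPM, and het2 tumours 2.60, 3.24, 3.57 and 2.84 CPM. Het1 tumours had 0.811, 0.853, 0.779 and 0.335 CPM, and homo tumours 0.427, 0.735, 0.327 and 0.825 CPM. WT stood apart from het2, het2 stood apart from both others, and het1 and homo overlapped. NPR3 fell by 5.55 on the log2 scale in het1 (SE 0.24, edgeR adjusted p = 7.88e-12), by 3.43 in het2 (SE 0.21, adjusted p = 7.06e-10) and by 5.82 in homo (SE 0.25, adjusted p = 4.43e-12). Het1 was thus below homo in culture, and the libraries of these 2 lines overlapped in tumours. NPR3 was also lower in homo than in the mean of the heterozygous tumours (log2FC -1.33, SE 0.25, edgeR adjusted p = 0.000319), a mean that joins unlike levels of het1 and het2. In a bulk tumour, fewer cells of a type and less RNA per cell cannot be told apart.

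Over all 12 groups NPR3 was at 94.1 ± 3.46 CPM in WT cells (SD, n = 3), 32.7 ± 3.19 in WT day 30 tumours (n = 4), 24.7 ± 4.41 in WT tumours under DMSO and 23.2 ± 4.50 under SAHA. The ranges of these 3 WT tumour groups overlapped each neighbour's in the order. Below them came het2 cells (14.9 ± 0.291), het2 tumours (3.06 ± 0.432) and homo cells (1.09 ± 0.149), each clear of the next. The het1 tumours, treated or not, and the homo tumours lay together, with means from 0.571 to 0.694 CPM, and het1 cells were lowest (0.0618 ± 0.0685).

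The genes with a pattern most like that of NPR3, by Pearson's r of log2(CPM + 0.5) over the 44 libraries among 15265 genes, were SCARA3 (r = 0.960), IFFO2 (0.948) and NPY4R (0.948). The libraries of a group share their line and table, so the 44 points are not independent, and r is a description. SCARA3 encodes a scavenger receptor-like protein and stood at 72.4 ± 0.734 CPM in WT cells and 21.1 ± 0.733 in het1 cells, a far smaller span than that of NPR3. NPY4R, a receptor for pancreatic polypeptide, went from 20.2 ± 0.270 CPM in WT cells to 0.274 ± 0.0664 in het1, 1.53 ± 0.0687 in het2 and 0.297 ± 0.0798 in homo cells. NPY4R has a near-identical copy, NPY4R2 (r = 0.946), and how reads were split between them is uncertain. With the 12 group means in place of the libraries, the first 3 were SCARA3, ADRA1B and TMOD3.

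NPR1, the receptor cyclase for atrial and B-type natriuretic peptides (chromosome 1, 153678637 to 153693992), was lower in both heterozygous lines and higher in homo. WT cells had 2.17, 2.16 and 1.82 CPM and homo cells 2.57, 3.33 and 2.75 CPM. Het1 cells had 0.175, 0.664 and 0.521 CPM and het2 cells 0.751, 0.898 and 0.506 CPM. Both heterozygous lines lay below every WT library, and they overlapped each other. The log2FC against WT was -2.19 (SE 0.26) in het1, -1.52 (SE 0.24) in het2 and 0.50 (SE 0.21) in homo cells.

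The same order held for NPR1 in day 30 tumours. WT tumours had 1.36, 1.99, 1.58 and 1.42 CPM, and homo tumours 2.07, 2.76, 2.64 and 1.99 CPM. Het1 tumours had 0.157, 0.168, 0.268 and 0.347 CPM, and het2 tumours 0.978, 1.11, 0.894 and 0.706 CPM. No 2 of these 4 groups overlapped. NPR1 fell by 2.72 on the log2 scale in het1 (SE 0.23, edgeR adjusted p = 4.44e-09) and by 0.80 in het2 (SE 0.20, adjusted p = 0.00234), and rose by 0.58 in homo (SE 0.19, adjusted p = 0.0146). Against the mean of the heterozygous tumours homo was higher by 2.34 (SE 0.17, edgeR adjusted p = 1.47e-09). The rise in homo against WT was not called with a covariate for endothelial and mural markers (log2FC 0.03, edgeR adjusted p = 0.973) or without homo tumour replicate 1 (log2FC 0.50, adjusted p = 0.05).

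NPR2, the receptor cyclase for C-type natriuretic peptide (chromosome 9, 35792154 to 35809732), varied least among the receptors. Its group means ran from 2.57 to 3.97 CPM over the 12 groups, and neighbours in that order overlapped throughout. In culture the log2FC against WT was -0.01 (SE 0.13) in het1, -0.62 (SE 0.13) in het2 and -0.58 (SE 0.13) in homo cells, where the last 2 did not overlap WT. At day 30 WT tumours had 2.85, 2.33, 3.03 and 2.53 CPM and every other line overlapped it. None of the 3 lines was called: the log2FC was 0.20 in het1 (95% interval -0.04 to 0.45, edgeR adjusted p = 0.154), 0.23 in het2 (-0.01 to 0.47, adjusted p = 0.111) and 0.21 in homo (-0.04 to 0.45, adjusted p = 0.142). The exons of NPR2 overlap those of SPAG8 on the other strand over 329 bases, and the sources used here do not give the strand setting of the counting.

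NPPB, the ligand in the list (chromosome 1, 11857464 to 11858931), had 0 to 3 counts in any group. With 3 counts as the limit that a count of 0 allows, a library at 0 leaves room for up to 0.0485 CPM in the culture library with the smallest scaled size. The line comparisons of the receptors above were thus made in samples where this peptide's own RNA was not detectable at this depth.

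The soluble cyclase subunits spanned wider ranges of levels in culture than NPR1 or NPR2, and the lines differed in which alpha subunit stood beside GUCY1B1. GUCY1A1 and GUCY1B1 are neighbours on chromosome 4, 26.6 kb apart and on the same strand, and GUCY1A2 lies on chromosome 11. The bases just upstream of their annotated starts are shown because these 3 genes of 1 enzyme took different values in the same line. They come from the RefSeq promoter table (GRCh38.p14), which holds 9 of the 10 genes, cut to the bases that no annotated exon covers; the GUCY1A1 stretch is chr4:155666598-155666710 on the + strand, the GUCY1B1 stretch chr4:155758771-155758991 on the + strand and the GUCY1A2 stretch chr11:107018525-107018726 on the - strand. Capitals mark the letters of the motifs searched on both strands. These were the GC box, written GGGCGG, and the CCAAT box, which reads ATTGG on the opposite strand. The TATA box was searched as TATAAA and the AP-1 site as TGANTCA. The cyclic AMP response element (CRE) was searched as TGACGTCA, and the last motif was ACGTG, which shares its first 4 letters with the middle of the CRE.
GUCY1A1: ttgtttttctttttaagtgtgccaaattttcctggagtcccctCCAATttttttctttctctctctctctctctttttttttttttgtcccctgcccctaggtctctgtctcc
GUCY1B1: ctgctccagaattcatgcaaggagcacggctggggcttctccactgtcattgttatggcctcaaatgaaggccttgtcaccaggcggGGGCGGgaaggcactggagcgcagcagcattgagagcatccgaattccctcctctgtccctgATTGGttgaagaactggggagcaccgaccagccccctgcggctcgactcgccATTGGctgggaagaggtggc
GUCY1A2: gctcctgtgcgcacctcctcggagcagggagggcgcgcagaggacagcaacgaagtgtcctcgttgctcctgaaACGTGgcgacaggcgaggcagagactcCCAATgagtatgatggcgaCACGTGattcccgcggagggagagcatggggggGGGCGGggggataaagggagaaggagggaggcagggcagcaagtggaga

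The GUCY1A1 stretch of 113 bases held 0 CpG dinucleotides and 39.8% G and C, against a median of 4 CpG and 55.8% over the same stretch of all 35116 promoters in the table. Its motif match was 1 CCAAT, which 14% of all promoters hold in such a stretch. The GUCY1B1 stretch of 221 bases held 9 CpG (median 9) and 60.2% G and C, with 1 GC box (in 39.1% of all promoters) and 2 CCAAT matches (29.9%). The GUCY1A2 stretch of 202 bases held 14 CpG (median 8) and 64.4% G and C, with 1 GC box (35.4%), 1 CCAAT match (27.8%) and 3 matches to ACGTG (14.6%), of which 2 are the 2 strands of CACGTG. None of the 3 held TATAAA, the AP-1 or the CRE letters, which says only that these letters are not in these stretches. Every stretch, in the compared promoters too, began 250 bases before the RefSeq start and ended short of it. The shares and medians thus leave out the bases nearest that start.

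GUCY1A1 (chromosome 4, 155666711 to 155732349) was at 0 counts in all 3 WT cell libraries. Homo cells had 16.1, 14.2 and 13.8 CPM, het2 cells 0.882, 1.46 and 1.21 CPM, and het1 cells 0.0749, 0 and 0.0985 CPM. Against a floor of 3 counts over the WT group, the level was at least 1088-fold higher in homo and at least 86.8-fold in het2. In het1 the ratio to that floor was 4.26, from 13 counts whose own counting error it leaves out. The order of the levels was homo, het2, het1, WT, and het1 overlapped WT.

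GUCY1A2, the other alpha subunit (chromosome 11, 106674012 to 107018524), had another order. Het2 cells had 42.0, 42.8 and 44.2 CPM, homo cells 26.5, 24.9 and 25.6 CPM, WT cells 2.60, 2.62 and 2.94 CPM, and het1 cells 0.112, 0.0407 and 0.0282 CPM. No 2 lines overlapped, and het1 was the single line below WT. The log2FC against WT was -5.42 (SE 0.21) in het1, 3.97 (SE 0.07) in het2 and 3.24 (SE 0.07) in homo cells.

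GUCY1B1, the beta subunit (chromosome 4, 155758992 to 155807591), was above WT in every edited line. WT cells had 0.226, 0.427 and 0.427 CPM, het1 cells 6.83, 7.45 and 6.63 CPM, het2 cells 12.5, 12.1 and 11.6 CPM, and homo cells 47.0, 44.6 and 45.6 CPM. No 2 lines overlapped, and the order was homo, het2, het1, WT. The log2FC against WT was 4.22 (SE 0.12) in het1, 5.01 (SE 0.11) in het2 and 6.95 (SE 0.10) in homo cells.

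Per kilobase of annotated exon (5.77 kb for GUCY1A1, 16.4 kb for GUCY1A2 and 3.72 kb for GUCY1B1), the subunits could be set beside each other. In homo cells GUCY1B1 was at 12.3 CPM per kb, GUCY1A1 at 2.55 and GUCY1A2 at 1.57. In het2 cells GUCY1B1 was at 3.24 and GUCY1A2 at 2.63 CPM per kb, with GUCY1A1 at 0.205. Het1 cells had GUCY1B1 at 1.87 CPM per kb with GUCY1A1 at 0.0100 and GUCY1A2 at 0.00369, so that the beta subunit stood almost alone. WT cells had GUCY1A2 at 0.166 and GUCY1B1 at 0.0967 CPM per kb. In day 30 tumours GUCY1B1 led in homo (1.30 CPM per kb, with GUCY1A2 at 0.642 and GUCY1A1 at 0.294), and GUCY1A2 (0.587) and GUCY1B1 (0.497) were near each other in het2. The exon length counts every annotated exon of a gene, so a gene whose long end is not used in these cells is understated.

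In day 30 tumours the order of the lines was the same for GUCY1A1 and GUCY1B1 and differed for GUCY1A2, where homo and het2 overlapped. GUCY1A1 was at 0, 0.0124, 0.0116 and 0.0320 CPM in WT tumours, 0.0142, 0.0129, 0.0255 and 0.0837 in het1, 0.146, 0.153, 0.124 and 0.218 in het2, and 2.64, 0.250, 2.57 and 1.33 in homo. Het2 and homo lay above all WT and het1 libraries and het1 overlapped WT, and the gene passed the filter only through the groups where it is high. Its differences are therefore given as a description with no p: the log2FC against WT was 6.73 in homo (SE 0.77), 3.30 in het2 (SE 0.95) and 1.21 in het1 (SE 1.26).

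GUCY1A2 in tumours was at 0.410, 0.248, 0.116 and 0.139 CPM in WT and at 0.0711, 0.0129, 0.0383 and 0.0359 in het1. Het2 tumours had 10.2, 10.5, 7.76 and 10.0 CPM and homo tumours 16.2, 6.24, 11.1 and 8.43 CPM. Every het2 and homo library lay above every WT library, and het1 lay below WT. GUCY1A2 passed the filter on low counts only through het2 and homo, where it is high. Its differences from WT are therefore a description with no p. The log2FC was 5.38 in het2 (SE 0.35), 5.54 in homo (SE 0.35) and -2.48 in het1 (SE 0.69), where the 4 libraries held 12 counts in all.

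GUCY1B1 in tumours was at 0.109, 0.112, 0.128 and 0.0960 CPM in WT, 0.754, 1.12, 1.06 and 1.16 in het1, 1.93, 1.72, 2.05 and 1.71 in het2, and 6.35, 1.67, 6.12 and 5.25 in homo. WT, het1 and het2 were apart from each other, and homo replicate 1 fell below all het2 libraries. Each WT library held 9 or 11 counts, so GUCY1B1 passed the filter only through the edited lines, where it is high. Its differences from WT are thus a description with no p. The log2FC was 3.21 in het1 (SE 0.39), 4.03 in het2 (SE 0.38) and 5.44 in homo (SE 0.37).

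Homo tumour replicate 1 was thus the lowest of its group for all 3 subunits. JAKMIP2 and MMP16, the genes with the pattern most like that of GUCY1A1 over the 44 libraries (r = 0.976 and 0.946), were low there too: JAKMIP2 was at 1.39 CPM against 2.62 to 4.76 in the other homo tumours, and the metalloprotease gene MMP16 at 0.622 against 3.31 to 4.26. NAALAD2, the third (r = 0.911), was at 2.11 CPM there, within the range of the others (2.03 to 3.03). EP300 in that library was at 143 CPM, with 136 to 141 in the other homo tumours. Its summed mural markers were the lowest of the group (21.4 CPM against 26.3 to 35.7), as were its fibroblast markers (314 against 348 to 485). Its endothelial sum was the highest (6.34 against 5.58 to 5.95), as was its adipocyte sum (4.32 against 3.30 to 3.86). The part of any of these markers in the low subunit values was not tested. Without it GUCY1A1 was higher in homo than in WT by 7.09 on the log2 scale, GUCY1A2 by 5.72 and GUCY1B1 by 5.73. With the 12 group means in place of libraries, JAKMIP2 and MMP16 stayed among the 3 genes most alike and ADAL replaced NAALAD2.

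**Figure D2:**
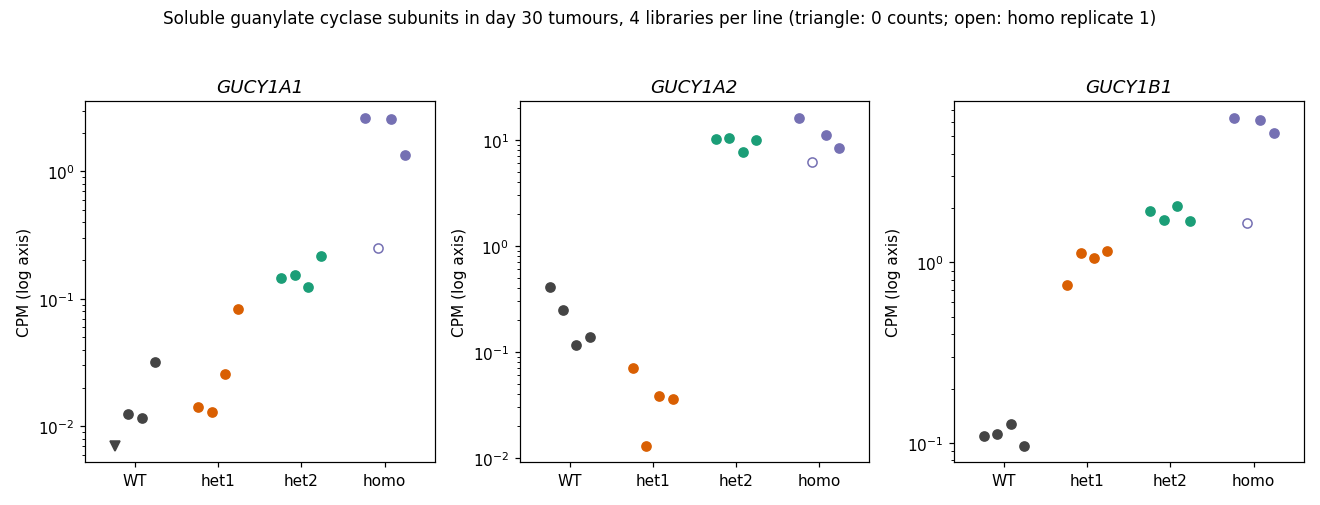
The 3 panels plot CPM of GUCY1A1, GUCY1A2 and GUCY1B1 in each of the 4 day 30 tumour libraries per line, on log axes; a triangle marks a library with 0 counts and the open circle homo replicate 1. Homo and het2 lie above WT in all 3 panels, het1 lies above WT for GUCY1B1 and below it for GUCY1A2, and homo replicate 1 is the lowest homo library in each panel.

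Homo tumours were also higher than the mean of the heterozygous tumours for GUCY1B1 (log2FC 1.82, SE 0.23, edgeR adjusted p = 3.70e-06). For GUCY1A1 the log2FC was 4.47 (SE 0.48) and for GUCY1A2 4.08 (SE 0.30), both descriptions as above. The heterozygous mean joins unlike levels of het1 and het2, and for GUCY1A2 the homo libraries overlapped those of het2. With a covariate for endothelial and mural markers, GUCY1B1 (edgeR adjusted p = 0.174) and the fall of NPR3 (0.183) were not called in this comparison, at log2FC of 1.80 and -1.53, and GUCY1A1 stood at 4.63.

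PDE5A, the phosphodiesterase that degrades cyclic GMP (chromosome 4, 119494395 to 119628991), stood apart in het2 tumours. In culture its levels were 3.64, 4.19 and 3.51 CPM in WT, 2.33, 1.76 and 2.03 in het1, 4.00, 3.74 and 3.78 in het2, and 4.55, 4.66 and 5.00 in homo. Het1 was below and homo above WT without overlap, with log2FC of -0.89 (SE 0.12) and 0.33 (SE 0.11), and het2 overlapped WT (0.02, SE 0.11). At day 30 WT tumours had 6.53, 6.33, 6.30 and 6.54 CPM, het1 3.10, 4.05, 3.59 and 2.99, het2 19.1, 15.5, 11.5 and 19.5, and homo 7.81, 7.15, 6.08 and 6.61. Het2 lay above and het1 below every other line, and homo overlapped WT. PDE5A rose in het2 (log2FC 1.33, SE 0.14, edgeR adjusted p = 8.11e-08) and fell in het1 (-0.89, SE 0.14, adjusted p = 2.27e-05), and in homo its log2FC was 0.11 (SE 0.14, adjusted p = 0.522). Its exons overlap a pseudogene on the other strand over 542 bases.

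PRKG1, the kinase best known in smooth muscle (chromosome 10, 50990891 to 52298350), was low in cultured cells apart from homo. WT cells had 0.259, 0.221 and 0.369 CPM and homo cells 1.02, 1.29 and 1.10 CPM (log2FC 1.99, SE 0.31). Het1 (0.187, 0.149 and 0.0704 CPM) and het2 (0.0715, 0.143 and 0.0787 CPM) lay below every WT library, at log2FC of -1.06 (SE 0.39) and -1.56 (SE 0.41). PRKG1 in day 30 tumours was at 0.640, 0.571, 0.535 and 0.395 CPM in WT, 0.953, 0.944, 0.970 and 0.813 in het1, 0.607, 0.642, 0.520 and 0.450 in het2, and 1.63, 0.958, 0.875 and 1.25 in homo. It rose in het1 (log2FC 0.80, SE 0.22, edgeR adjusted p = 0.00373) and homo (1.14, SE 0.21, adjusted p = 0.000125), and in het2 the log2FC was 0.04 (SE 0.22, adjusted p = 0.898). The het1 direction in tumours was thus opposite to that in culture. PRKG1 was higher in homo than in the mean of the heterozygous tumours (log2FC 0.72, SE 0.18, edgeR adjusted p = 0.00249), but homo and het1 libraries overlapped. With the endothelial and mural covariate neither homo difference was called (log2FC 0.34 and -0.07, edgeR adjusted p = 0.707 and 0.969). PRKG1 overlaps its antisense gene PRKG1-AS1 over 169 exon bases.

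PRKG2, the second kinase (chromosome 4, 81087370 to 81215117), hardly varied in culture, where its group means ran from 2.45 to 2.70 CPM and all lines overlapped. Among day 30 tumours WT had 4.49, 3.92, 3.86 and 3.99 CPM, het1 5.92, 5.91, 5.28 and 5.65, het2 4.24, 3.46, 2.91 and 3.66, and homo 5.53, 4.72, 5.31 and 4.79. It rose in het1 (log2FC 0.50, SE 0.11, edgeR adjusted p = 0.000543) and homo (0.33, SE 0.11, adjusted p = 0.0145), and these groups did not overlap WT. In het2 the log2FC was -0.21 (SE 0.11, adjusted p = 0.123), which was called without het2 tumour replicate 0 (-0.30, edgeR adjusted p = 0.0318). The homo rise was not called with the endothelial and mural covariate (0.41, adjusted p = 0.338). Against the mean of the heterozygous tumours PRKG2 had a log2FC of 0.18 (edgeR adjusted p = 0.123), or 0.23 without het2 tumour replicate 0 (adjusted p = 0.0466). PDE5A had a log2FC of -0.11 (adjusted p = 0.477) and NPR2 of -0.01 (adjusted p = 0.95). For PDE5A this mean hides that every homo library lay above every het1 and below every het2 library.

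Counted over the day 30 tumours, het1 had 7 of 9 tested members called (3 higher, 4 lower), where 51.5% of all genes were called. Het2 had 6 of 9 (4 higher, 2 lower) against 49.2% of all genes, and homo had 7 of 9 (6 higher, 1 lower) against 54.8%. Homo against the mean of the heterozygous lines had 6 of 9 (5 higher, 1 lower) against 44.7%. GUCY1A1 is counted among the called members in het2, homo and homo against the heterozygous mean, and GUCY1A2 and GUCY1B1 in every comparison. All 3 passed the filter only through groups where they are high, so nothing is read from these counts. The shares of these 9 genes were not tested against those of all genes, and the comparisons with WT share the WT libraries. The median log2FC of the tested members was 0.20 in het1, 0.23 in het2 and 0.58 in homo, and that of all genes 0.02, -0.01 and 0.01.

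**Figure D3:**
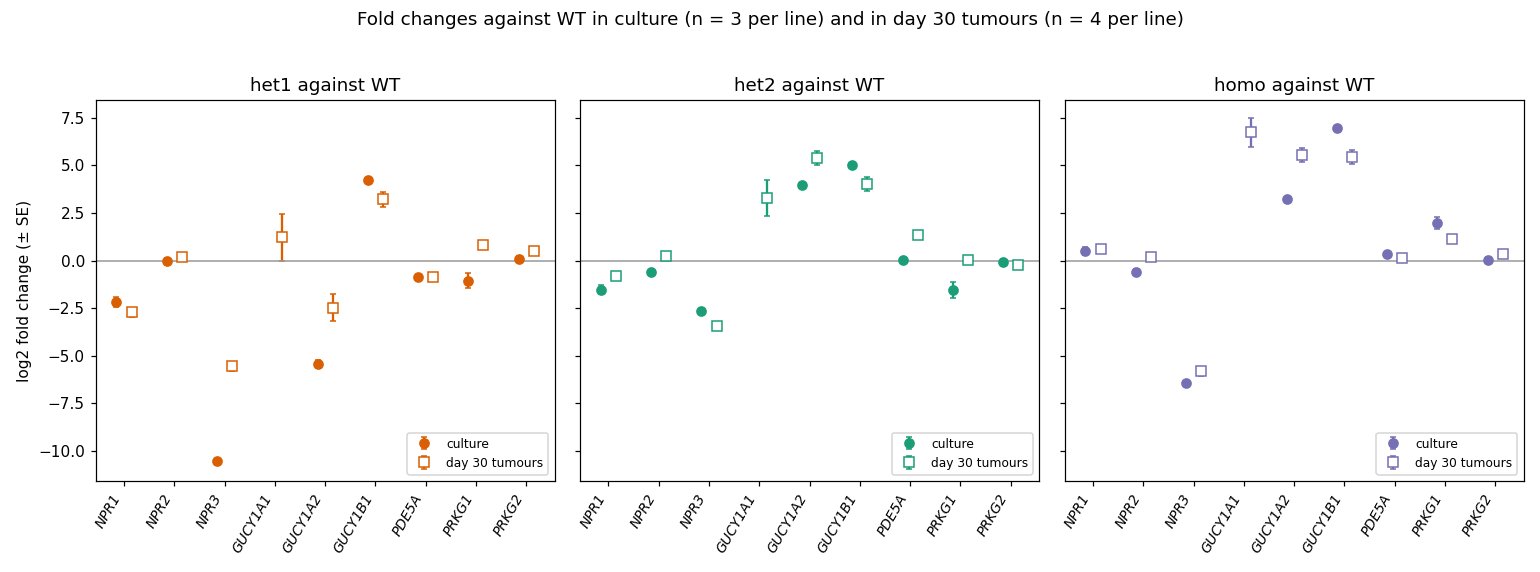
Log2 fold change against WT with its SE for the members in culture (filled circles, 3 libraries per line) and day 30 tumours (open squares, 4 per line), 1 panel per line. GUCY1A1 in culture is left out because WT was at 0 counts; NPR3 is below 0 and GUCY1B1 above 0 in every panel, and GUCY1A2 is below 0 in het1 alone.

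Several of these genes are known from vessel walls, so markers of other cell types are given beside the tumour results. The summed level of the 10 endothelial markers was 2.72 to 3.65 CPM in WT, 1.56 to 2.13 in het1, 6.59 to 9.32 in het2 and 5.58 to 6.34 in homo day 30 tumours, with EMCN at 0 in het1 and no marker at 0 elsewhere. The 9 mural markers summed to 16.9 to 19.5 CPM in WT, 14.9 to 25.9 in het1, 13.2 to 21.0 in het2 and 21.4 to 35.7 in homo, with none at 0. The lines themselves carried such transcripts in culture, where the mural sum was 3.81 to 4.58 CPM in WT, 12.1 to 13.8 in het1, 17.2 to 17.6 in het2 and 21.0 to 22.2 in homo. The endothelial sum was thus higher in het2 and homo tumours than in WT. Of 7 tested endothelial markers, 0 were higher and 2 lower than in WT in het1, 4 and 0 in het2, and 4 and 1 in homo. Of 9 tested mural markers, 3 were higher and 2 lower in het1, 1 and 3 in het2, and 6 and 0 in homo. The part of both lists in the member results was examined only by the covariate. These sums differ by line, the mural sum in culture too, so host cells and line cannot be told apart by it. Of the other lists, the 7 myeloid markers summed to 31.7 to 46.0 CPM in WT, 12.3 to 16.1 in het1, 19.5 to 26.4 in het2 and 17.5 to 19.5 in homo. The 8 fibroblast markers summed to 218 to 362 CPM in WT, 107 to 282 in het1, 107 to 358 in het2 and 314 to 485 in homo. The 5 adipocyte markers summed to 15.5 to 21.1 CPM in WT, 12.6 to 14.7 in het1, 12.4 to 19.3 in het2 and 3.30 to 4.32 in homo, with FABP4 at 0 in WT and ADIPOQ at 0 in the other lines. The 8 epithelial markers of A549 cells summed to 6081 to 6264 CPM in WT, 3064 to 3693 in het1, 4404 to 4799 in het2 and 4377 to 4881 in homo. Myeloid and epithelial sums of WT tumours thus lay above those of the other lines. By marker, all 5 tested epithelial markers were lower than in WT in each line. Of 5 tested myeloid markers, 1 was higher and 3 lower in het1, 1 and 2 in het2, and 3 and 1 in homo, so the sum does not stand for each marker. Of 8 tested fibroblast markers it was 4 and 0, 3 and 0, and 4 and 1. The part of these 4 lists in the member results was not tested. With the covariate, PDE5A in het2 tumours kept a log2FC of 1.31 (edgeR adjusted p = 1.29e-06). Against WT, the 3 subunits in homo had log2FC of 6.89 (GUCY1A1), 5.24 (GUCY1A2) and 5.42 (GUCY1B1) with it. The sources used here do not give the handling of host reads.

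In treated tumours het1 was compared with WT again, in other libraries. Under DMSO NPR3 was at 18.8, 29.3, 26.3 and 24.3 CPM in WT and 0.774, 0.394, 0.695 and 0.422 in het1 (log2FC -5.41, SE 0.25, edgeR adjusted p = 6.47e-11). NPR1 was at 1.54, 1.69, 1.55 and 0.906 CPM in WT and 0.0968, 0.0408, 0.171 and 0.218 in het1 (-3.40, SE 0.33, adjusted p = 4.32e-08). GUCY1B1 was at 0.0689, 0.235, 0.185 and 0.291 CPM in WT and 0.788, 0.829, 1.01 and 1.02 in het1 (2.25, SE 0.34, adjusted p = 1.45e-05). The groups did not overlap for any of these 3 genes. PDE5A was lower (-0.43, SE 0.11, adjusted p = 0.00216) and PRKG2 higher (0.33, SE 0.12, adjusted p = 0.0304) in het1 without overlap. GUCY1A2 had a log2FC of -1.80 (SE 0.58) with overlapping libraries, and -1.55 without WT DMSO replicate 7. In treated tumours GUCY1A2 passed the filter only through WT, where it is high, so no p is given. The call of PRKG2 was lost without WT DMSO replicates 2 or 3 or het1 DMSO replicates 2 or 3, with adjusted p from 0.0651 to 0.0977 and log2FC from 0.27 to 0.32. With the endothelial and mural covariate PDE5A (-0.38, adjusted p = 0.109) and PRKG2 (0.35, adjusted p = 0.207) were not called. In all 6 of 8 tested members, GUCY1A2 among them, were called (2 higher, 4 lower), against 54.0% of all genes, and nothing is read from this count.

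PRKG1 was higher in het1 than in WT at day 30. Under DMSO it was at 0.882, 1.16, 0.837 and 1.70 CPM in WT and 0.470, 0.843, 0.905 and 0.694 in het1 (log2FC -0.63, SE 0.28, edgeR adjusted p = 0.0666), and the difference between the 2 series was not tested. The DMSO difference was called without any 1 of WT DMSO replicates 2 or 7 or WT SAHA replicate 4 (adjusted p from 0.0396 to 0.0433). Markers also stood differently here: the mural sum was 17.4 to 29.7 CPM in WT and 14.6 to 16.9 in het1 tumours under DMSO, and the endothelial sum 3.32 to 4.03 and 1.31 to 1.80. Under DMSO the fibroblast sum was 248 to 356 CPM in WT and 116 to 135 in het1, and the myeloid sum 41.3 to 74.9 and 15.0 to 18.1, with CD163 at 0 in WT. By marker, 4 of 8 tested fibroblast markers were higher in het1 than in WT and 4 lower. Of 5 tested myeloid markers 1 was higher and 3 lower, of 6 endothelial markers 0 and 2, and of 9 mural markers 0 and 1. The part of fibroblast and myeloid markers in the PRKG1 value was not tested. That of endothelial and mural markers cannot be told apart from the line by the covariate, with which the log2FC was -0.33 (adjusted p = 0.605).

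Under SAHA het1 differed from WT in 6 of 8 tested members (2 higher, 4 lower), against 58.9% of all genes. NPR3 was lower in het1 (log2FC -5.29, SE 0.25, edgeR adjusted p = 6.24e-11), as was NPR1 (-2.14, SE 0.28, adjusted p = 2.35e-06). GUCY1A2 had a log2FC of -2.91 (SE 0.59), a description as under DMSO. GUCY1B1 was higher (3.85, SE 0.34, adjusted p = 8.73e-09), as was PRKG2 (0.58, SE 0.13, adjusted p = 0.000507). PRKG1 was lower with overlapping libraries (-0.67, SE 0.28, adjusted p = 0.0466), and the call was lost without any 1 of WT DMSO replicate 3, WT SAHA replicates 3, 6 or 8, het1 DMSO replicates 3 or 5, or het1 SAHA replicates 1, 2 or 6. Over all single omissions its log2FC ran from -0.87 to -0.49 and its adjusted p from 0.00939 to 0.174, and with the endothelial and mural covariate it was -0.64 (adjusted p = 0.0636). PDE5A had a log2FC of -0.19 (adjusted p = 0.139) and NPR2 of 0.10 (adjusted p = 0.563).

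SAHA against DMSO raised 2 members in het1 tumours, GUCY1B1 and NPR1. GUCY1B1 stood at 0.788, 0.829, 1.01 and 1.02 CPM under DMSO and 2.12, 2.87, 2.46 and 2.43 CPM under SAHA (log2FC 1.43, SE 0.28, edgeR adjusted p = 0.00183). NPR1 stood at 0.0968, 0.0408, 0.171 and 0.218 CPM under DMSO and 0.521, 0.309, 0.343 and 0.392 CPM under SAHA (1.55, SE 0.36, adjusted p = 0.00562). In both genes every SAHA library lay above every DMSO library. The 2 of 8 members called compare with 16.8% of all genes. The other 6 had log2FC from -0.45 to 0.31, among them NPR2 (0.31, 95% interval 0.02 to 0.60, adjusted p = 0.134), whose groups also did not overlap, and NPR3 (0.03, -0.62 to 0.67, adjusted p = 0.967). In these het1 tumours the endothelial sum was 1.31 to 1.80 CPM under DMSO and 1.88 to 2.44 under SAHA, the mural sum 14.6 to 16.9 and 17.9 to 19.7, and the fibroblast sum 116 to 135 and 164 to 240. By marker, 1 of 6 tested endothelial and 1 of 9 tested mural markers was higher under SAHA and 0 lower. Of 8 fibroblast markers 1 was higher and 1 lower. With the endothelial and mural covariate neither gene was called (GUCY1B1 log2FC 1.07, edgeR adjusted p = 0.217; NPR1 1.59, adjusted p = 0.054).

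In WT tumours none of the 8 tested members was called by edgeR or DESeq2, and 0 of 8 had an unadjusted p under 0.05. Over the whole table edgeR called 0 of 22586 genes (0%), with 1911 at an unadjusted p under 0.05, while DESeq2 called 147 genes. GUCY1B1 stood at 0.276, 0.0419, 0.154 and 0.215 CPM under SAHA, against 0.0689, 0.235, 0.185 and 0.291 under DMSO (log2FC -0.17, 95% interval -1.02 to 0.68, edgeR adjusted p = 0.957). NPR1 stood at 1.85, 2.06, 1.30 and 1.81 CPM under SAHA (0.29, -0.25 to 0.83, adjusted p = 0.836), overlapping the DMSO libraries. The difference between the SAHA effects of the lines was 1.60 for GUCY1B1 (SE 0.49, edgeR adjusted p = 0.07) and 1.26 for NPR1 (SE 0.44, adjusted p = 0.111), so neither was called. Of the 8 members 0 were called, with 2 at an unadjusted p under 0.05, against 4.72% of all genes. DESeq2 called both (adjusted p = 0.00575 and 0.0401), and GUCY1B1 was also called without WT DMSO replicate 2 (adjusted p = 0.0233); over all alternatives the adjusted p ran from 0.00575 to 0.412 and from 0.0401 to 0.275.

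GUCY1A1 stayed near the floor in treated tumours, with 13 counts in WT under DMSO, 8 in WT under SAHA, 3 in het1 under DMSO and 14 in het1 under SAHA, and was not tested. The 14 counts of het1 under SAHA were 1, 4, 8 and 1 per library, with 8 of them in replicate 3. The beta subunit that rose under SAHA thus had little RNA of either alpha subunit beside it: GUCY1A2 was at 0.0261, 0.0371, 0.0735 and 0.0157 CPM in het1 under SAHA.

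**Figure D4:**
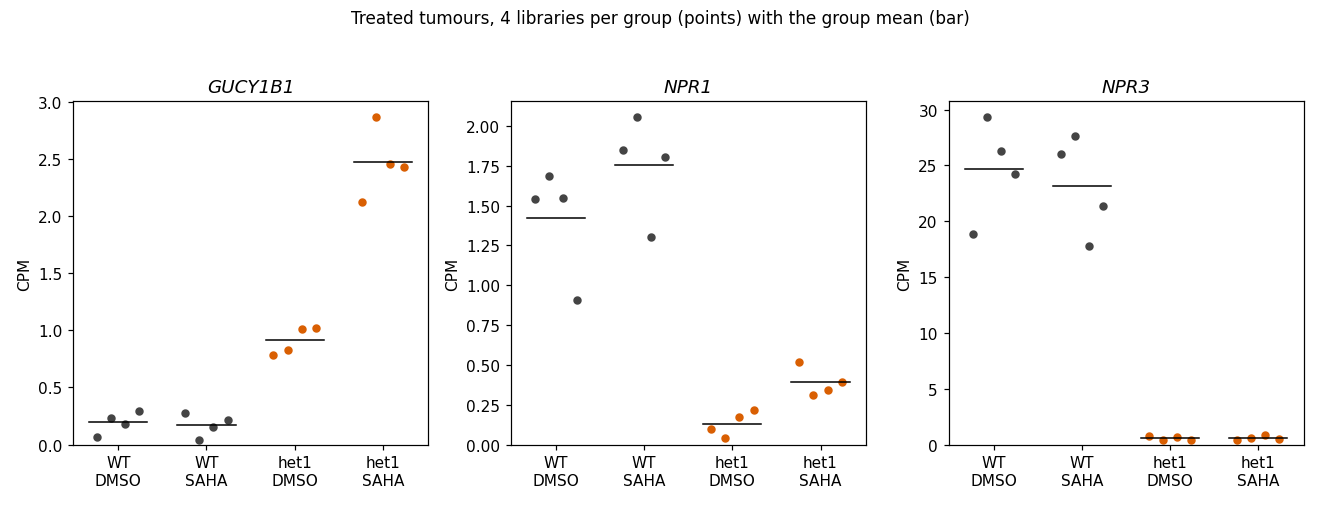
CPM of GUCY1B1, NPR1 and NPR3 in each of 4 libraries (points) and the mean (bar) of WT and het1 tumours under DMSO or SAHA, on axes from 0. In het1 the SAHA points of GUCY1B1 (2.12 to 2.87) and NPR1 (0.309 to 0.521) lie above the DMSO points, and NPR3 lies below 1 CPM in both het1 groups.

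The rest of the pathway was read from a list of 39 genes, of which 38 could be matched. In culture 27 were tested: 17 rose and 6 fell in het1 (62.8% of all genes called), 17 rose and 7 fell in het2 (68.5%), 11 rose and 9 fell in homo (70.5%), and 11 were higher and 10 lower in homo than in the heterozygous mean (49.9%). The named genes below were picked from these same culture contrasts, so their values are a description with no p. PDE1C, a calcium- and calmodulin-dependent phosphodiesterase, was at 55.8 ± 3.13 CPM in WT cells, 2.72 ± 0.340 in het1, 0.628 ± 0.179 in het2 and 2.81 ± 0.272 in homo (SD, n = 3). ABCC4, an exporter of cyclic nucleotides, was lower than in WT in het1 (log2FC -1.30, SE 0.038) and homo (-1.50, SE 0.039). FURIN, a protease that processes peptide precursors, was higher in het1 (0.87, SE 0.033) and homo (1.15, SE 0.033). RGS2, a regulator of G protein signalling that PRKG1 acts on, was higher in het1 (1.83, SE 0.053). In het2 the potassium channel subunit KCNMA1 was higher by 2.24 (SE 0.059) and the exporter ABCC5 by 1.42 (SE 0.040). MME, the peptidase neprilysin that degrades natriuretic peptides, was at 0.00459 ± 0.00796 CPM in WT, a single count, and at 8.41 ± 0.159 CPM in het2. PDE10A was higher in homo (1.05, SE 0.039). Against the heterozygous mean, homo was lower for PDE1A (-4.56, SE 0.20), KCNMA1 (-2.34, SE 0.077), ABCC4 (-0.54, SE 0.034) and PDE3A (-0.43, SE 0.030).

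In day 30 tumours 31 of the 39 were tested. The genes named for each tumour comparison were picked by the smallest adjusted p in that comparison. Their adjusted p thus restate the pick and are no separate test. A named gene under 1 CPM in 1 group met the limit for naming only through another. In het1 16 rose and 9 fell (51.5% of all genes called), and all 11 tested phosphodiesterases were called (9 higher, 2 lower). PDE3A, which cyclic GMP inhibits, fell from 511 ± 25.0 to 171 ± 12.7 CPM (log2FC -1.56, n = 4, edgeR adjusted p = 8.26e-14), and PDE1A rose by 1.30 (adjusted p = 9.13e-10). NOS3, endothelial nitric oxide synthase, went from 0.0471 ± 0.0152 to 1.10 ± 0.0756 CPM (4.54). It stood near the floor in WT and met the limit for naming only through het1, so no p is given. The endothelial sum given above was lower in het1 than in WT. RGS2 rose by 3.05 (adjusted p = 1.03e-08).

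In het2 tumours 13 of these genes rose and 8 fell (49.2% of all genes called), and in homo 13 rose and 10 fell (54.8%). FURIN rose in het2 (log2FC 1.75, edgeR adjusted p = 9.25e-14) and homo (0.94, adjusted p = 2.72e-10), as did PCSK6, the convertase that activates corin (1.30 and 2.45, adjusted p = 3.25e-11 and 2.37e-15). NOS1, neuronal nitric oxide synthase, rose in het2 from 3.56 ± 0.329 to 28.7 ± 7.55 CPM (2.99, adjusted p = 1.33e-10), and PDE3B rose by 1.29 (adjusted p = 1.14e-10). In homo PDE3A fell by 0.83 (adjusted p = 6.40e-10) and ABCC4 rose by 0.64 (adjusted p = 3.82e-09). Against the heterozygous mean 11 were higher and 8 lower in homo (44.7% of all genes called). PCSK6 was higher (1.68, edgeR adjusted p = 1.05e-13). PDE1A (-1.65, adjusted p = 4.37e-11), NOS1 (-2.39, adjusted p = 1.66e-08) and the guanylin receptor GUCY2C (-1.56, adjusted p = 3.53e-08) were lower. This mean can join unlike levels of het1 and het2, so a lower value does not place homo below each line. NOS1 was at 14.7 ± 15.8 CPM over both heterozygous lines, 28.7 ± 7.55 in het2 and 0.859 ± 0.298 in homo. With the endothelial and mural covariate, 10 genes of the list were called in homo against WT and 4 against the heterozygous mean.

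In treated tumours 32 were tested, and het1 differed from WT in 14 higher and 10 lower under DMSO (54.0% of all genes called) and in 17 higher and 8 lower under SAHA (58.9%). PDE1A was higher in het1 under DMSO (log2FC 2.19, edgeR adjusted p = 1.22e-12) and SAHA (1.92, adjusted p = 6.18e-12), and NOS1 was lower (-3.05 and -2.33, adjusted p = 1.61e-11 and 3.74e-10). NOS3 was higher (3.40 and 5.01), a description with no p as at day 30. ABCC5 was higher under DMSO (0.70, adjusted p = 3.53e-09) and PDE6A under SAHA (2.63, adjusted p = 2.34e-09). With the covariate the 24 called under DMSO became 13. SAHA raised 5 and lowered 2 of the list in het1 tumours (16.8% of all genes called). In WT edgeR called 0 of the 32, with 6 at an unadjusted p under 0.05, and DESeq2 called 1. Under SAHA in het1 tumours, ABCC4 fell from 159.5 ± 15.3 to 95.9 ± 7.94 CPM (-0.74, n = 4, adjusted p = 7.95e-05), and PDE2A (1.02, adjusted p = 0.00111), PDE6D (0.35, adjusted p = 0.00304) and PDE10A (0.22, adjusted p = 0.0116) rose. The SAHA effect differed between the lines for 5 genes of the list (4.72% of all genes called), among them ABCC4 (-0.73, adjusted p = 0.0055), NOS2 (3.14, adjusted p = 0.0231), PDE2A (1.10, adjusted p = 0.0236) and PDE6D (0.41, adjusted p = 0.0278). The difference between lines was not called for PDE6D without any 1 of WT DMSO replicates 7 or 8, WT SAHA replicate 3, het1 DMSO replicate 2 or het1 SAHA replicate 1 (edgeR adjusted p from 0.0546 to 0.0686). It was not called for PDE2A without any 1 of WT DMSO replicate 8, het1 DMSO replicate 5 or het1 SAHA replicate 3 (0.0501 to 0.0514), nor for NOS2 without WT DMSO replicate 2 (0.0552). In het1 the SAHA effect on PDE10A was not called without het1 DMSO replicate 5 (0.0555). With the covariate the difference was not called for PDE6D (adjusted p = 0.106), PDE2A (0.203) or ABCC4 (0.0757), nor the effect in het1 for PDE6D (0.0542), PDE2A (0.0911) or PDE10A (0.224). With the covariate the counts were 2 in het1 and 1 for the difference between lines. The count of 5 ran from 0 to 7 over the alternatives, and that of 7 in het1 from 1 to 9. Without het1 SAHA replicate 1 the 7 became 4 and the 5 became 3. The 5 also became 3 without any 1 of WT DMSO replicates 2 or 7, WT SAHA replicate 3, het1 DMSO replicate 5 or het1 SAHA replicate 3, and 2 without WT DMSO replicate 8.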

How the data were processed

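RNA was measured in 44 libraries (polyA RNA, KAPA stranded mRNA-Seq kit, per the labels' protocols). The authors deposited 3 tables of raw counts per Ensembl gene, and reads were processed with HISAT2, HTSeq and bcl2fastq on hg38, per the submitters' processing notes. The sources used here do not give versions, annotation release, strand setting or the handling of host reads. All 58721 gene IDs matched GENCODE 29. Each table was fitted alone with edgeR 4.0.16 (R 4.3.3; TMM, filterByExpr by group, robust quasi-likelihood test, all groups in 1 fit), with Benjamini-Hochberg adjustment over all genes tested and calls at an adjusted p under 0.05. The fit was tested on simulated counts. CPM used TMM-scaled library sizes, and SE and 95% intervals come from the fit. Alternatives were RLE size factors, 2 other filters, a replicate block, fits of only the groups compared, DESeq2 1.42.0, a covariate (mean log2 CPM of endothelial and mural markers) and the omission of each library.

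The members and lists were chosen with earlier results of these data known. Beside the members, the text names at most 4 pathway genes per comparison, those of smallest adjusted p among called genes with a mean of at least 1 CPM in either group, and the 3 genes most alike NPR3 and GUCY1A1. Totals of 61168373 to 99593214 counts per library set the precision. Floors cover counting error only, and intervals from the fit include the spread between libraries. No 2 libraries of a group were identical.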

Additional observations from a re-analysis of the deposited data

Results flagged for a closer look

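Among 68 sets of 4 values examined, each 1 tested member in 1 tumour group, 3 held a library far from the other 3. Chance gives about 1 in 20, a rate that 3 of 68 does not exceed, and the sets share libraries. NPR3 in het1 day 30 tumours was at 0.335 CPM in replicate 4, and at 0.779 to 0.853 CPM in the others. PRKG1 in the same library, het1 tumour replicate 4, was at 0.813 CPM, with the others at 0.944 to 0.970 CPM. GUCY1A2 in het1 tumours under DMSO was at 0.118 CPM in replicate 4, with the others at 0.0272 to 0.0408 CPM. That is 9 counts against 2 or 3 in each of the others.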

How the results depend on the processing

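Of the alternative values for members in tumours, 1620 kept direction and side of the threshold, 30 lost a call, 8 gained one and 48 turned sign. In culture 615 stayed within 1 SE of the main log2FC and 28 moved. Genes called over the whole table moved by more than 1.5 times as follows, and the cause was not tested. With the covariate, 5089 were called in homo against WT (12348), 1271 in homo against the heterozygous mean (10080), 126 for SAHA in WT (0), 1064 for SAHA in het1 (3801) and 448 for the difference between the SAHA effects (1066). DESeq2 called 147 for SAHA in WT and 1810 for the difference, and without a filter 36 were called for SAHA in WT. Leaving out 1 library gave 0 to 170 for SAHA in WT (170 without WT DMSO replicate 3, 27 without WT SAHA replicate 4, 1 without WT DMSO replicate 2 or WT SAHA replicate 6). It gave 542 to 1677 for the difference (634 without WT DMSO replicate 7, 572 and 1677 without WT SAHA replicates 3 and 6, 605 and 700 without het1 DMSO replicates 3 and 5, 542 and 690 without het1 SAHA replicates 1 and 3). The median r of residuals of same-numbered libraries was -0.0056 in culture, -0.014 at day 30 and -0.02 in treated tumours. These values gave no sign that the numbers pair libraries but cannot exclude it, and the labels leave it open. The fit with a replicate block called 812 for SAHA in het1 and 19 for the difference. It left uncalled PRKG1 under SAHA (-0.43, edgeR adjusted p = 0.26) and GUCY1B1 for SAHA in het1 (1.49, 0.0917), and GUCY1A2 under DMSO was at -1.46. Signs turned only in member values that were not called, apart from PRKG1 in homo against the heterozygous mean (-0.067 with the covariate). With the block the turned log2FC were 0.053 (NPR2, homo against the heterozygous mean), -0.10 (NPR2, SAHA in WT), 0.20 and -0.077 (GUCY1A2 and PRKG2, SAHA in het1) and 0.14 (PRKG1, difference). With the covariate they were 0.13 (NPR2, homo against the heterozygous mean), -0.14 (PRKG1, het2), -0.0044 (PDE5A, homo), 0.0023 (PRKG1, SAHA in WT), 0.0016 and -0.11 (GUCY1A2 and NPR3, SAHA in het1) and -0.048 (NPR3, difference). Leaving out 1 library, log2FC that turned ran from -0.083 to 0.14 (PRKG1, het2) and from -0.057 to 0.039 (NPR2, homo against the heterozygous mean). For SAHA in WT they ran from -0.074 to 0.12 (NPR2), -0.21 to 0.011 (NPR3), -0.49 to 0.15 (GUCY1B1) and -0.21 to 0.23 (PRKG1). For SAHA in het1 they ran from -0.24 to 0.20 (NPR3), -0.24 to 0.045 (PRKG1), -0.017 to 0.098 (PRKG2) and -0.97 to 0.27 (GUCY1A2), and for the difference from -0.30 to 0.14 (PRKG1) and -0.14 to 0.30 (NPR3). Group means moved by a ratio of 0.939 to 1.03 with TMM over all 44 libraries and 0.922 to 1.06 without TMM. Depth limits NPPB everywhere and GUCY1A1 in WT and het1.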
